A study of Mus musculus with 8 samples.

Results

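The antiviral interferon-stimulated effector genes described here are 38 mouse genes chosen by symbol from a list: members of the Ifit, Oas, Mx, Parp and Schlafen (Slfn) families, RNA sensors, the ISG15 system and further interferon-induced genes. All 38 were among the 26146 genes of the count table, and all 38 passed the filter on low counts that left 13439 genes tested. Type I interferon binds its receptor, the kinases Jak1 and Tyk2 are activated, and a transcription factor complex that they activate binds a short DNA element in the promoters of such genes, the interferon-stimulated response element. The gene products sense viral RNA, block its translation, lead to its degradation, or modify and trap viral proteins. Blood stem and progenitor cells are known to express part of this set without infection.

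The libraries were polyA RNA from sorted Lin-Sca1+Kit+ (LSK) cells, the fraction that holds mouse haematopoietic stem and progenitor cells, with 1 library from each of 4 wild type and 4 Jmjd6 KO mice. In the KO mice a floxed Jmjd6 had been deleted in blood lineages by a Cre active in chosen cell types. The protocol text, which is the same for both genotypes, does not name the driver of the Cre, and whether wild type mice carried the Cre or the floxed allele, the strain and the age are not stated. Jmjd6 encodes a 2-oxoglutarate-dependent oxygenase reported to act on splicing factors and histones, and the comparison asks which transcripts differ when it is deleted.

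Library totals ran from 9344779 to 15079960 counts. Jmjd6 itself was at 52.5, 63.7, 54.6 and 63.7 CPM in wild type replicates 1 to 4 and at 28.7, 28.1, 30.7 and 27.5 CPM in the KO ones, without overlap. It averaged 58.6 ± 5.93 CPM (counts scaled to a common library size; SD, n = 4) in the wild type and 28.7 ± 1.41 CPM (SD, n = 4) in the KO libraries, and fell by 1.03 on the log2 scale (SE 0.15, edgeR quasi-likelihood adjusted p = 0.0381). Its size changed little in the other fits (-1.11 to -0.97), but the call was lost with the replicate numbers as a block (adjusted p = 0.402), in 7 of the 8 fits without 1 library, and in all 3 fits on 6 libraries. Jmjd6 RNA thus remained in every KO library, and counts over the whole gene do not show which exons or cells it came from. KO replicate 3 stood apart from the other 7 libraries on the first principal component of all tested genes (83.9 against -28 to 9.4), and it and wild type replicate 4 were the only libraries with 0 counts on Y-linked genes. Wild type replicate 1 had more erythroid marker RNA (403.6 CPM summed over the list, against 16.3 to 57.3 in the other wild type and 17.0 to 35.2 in the KO libraries). LSK markers summed to 3170 to 3968 CPM in the wild type and 3064 to 3439 CPM in the KO libraries, and none of the 10 was at 0. Of these 10 genes, 9 had a log2 fold change below 0 and 1 above, with a median of -0.22. Hlf and Mecom had an unadjusted p under 0.05 by edgeR, both with lower KO levels (over all tested genes the share was 3.28%). After adjustment edgeR called 0 of the 10.

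The promoter sequences were searched first, since the response element is what ties these genes to interferon. RefSeq promoter windows on GRCm38.p6, the mm10 build, which reach from 250 bases before to 50 bases after a start site, were found for 27 of the 38 genes. The core of the element was searched on both strands as GAAA, any 2 bases, GAAA, or its reverse complement; matches may overlap. It was present for 14 of the 27 genes (51.9%), against 3.99% of all 27025 genes with a window, and in 3.44% of all 32851 windows. For 12 of the 14 a match lay wholly before the start site. These 12 are 44.4% of the 27 genes, against 3.46% of all genes with a window. A longer form, with the reverse strand reading AG before TTTC, any 2 bases, TTTC, was present for 8 of the 27 genes (29.6%). It was present for 0.3% of all genes with a window and in 0.27% of all windows.

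The stretches below carry the matches of 7 genes that span the range of the results, from Ifit1, Ifit3 and Oas1g, which had some of the lowest fold changes, to Bst2, whose level hardly differed. They read 5′ to 3′ along the strand of the gene, with the matched bases in capitals, and each ends before the RefSeq start site.
Ifit1: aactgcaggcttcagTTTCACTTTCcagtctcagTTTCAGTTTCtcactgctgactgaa
Ifit3: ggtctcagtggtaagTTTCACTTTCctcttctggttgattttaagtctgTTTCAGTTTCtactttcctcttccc
Oas1g: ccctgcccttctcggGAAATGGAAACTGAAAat
Oas1a: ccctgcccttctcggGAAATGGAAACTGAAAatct
Rsad2: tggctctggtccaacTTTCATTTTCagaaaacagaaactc
Isg15: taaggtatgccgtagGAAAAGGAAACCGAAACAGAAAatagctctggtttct
Bst2: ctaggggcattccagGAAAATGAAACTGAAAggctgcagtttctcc
On GRCm38.p6 the Ifit1 stretch is chr19:34640770-34640828, plus strand, the Ifit3 stretch chr19:34583358-34583431, plus strand, the Oas1g stretch chr5:120887614-120887646, minus strand, the Oas1a stretch chr5:120907526-120907560, minus strand, the Rsad2 stretch chr12:26456548-26456587, minus strand, the Isg15 stretch chr4:156200860-156200911, minus strand and the Bst2 stretch chr8:71537572-71537617, minus strand. Ifit1 and Ifit3 each held 2 separate matches, Isg15 a chain of 3 overlapping ones, and Bst2 2 overlapping ones. The stretch of Ifit3b is the same as that of Ifit3, letter for letter. Oas1a and Oas1g share all bases of the shorter stretch and differ only in where it ends.

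**Figure D1:**
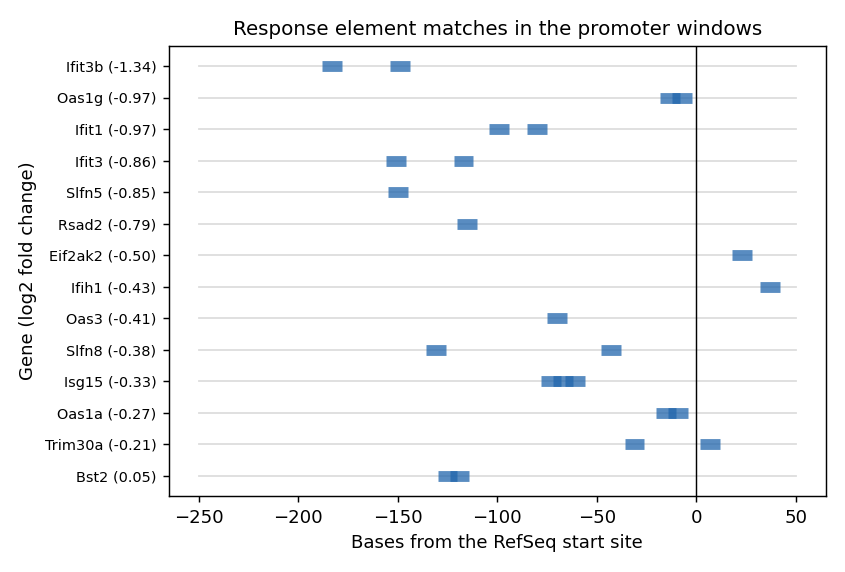
Position of each match to the response element core (blue blocks) relative to the RefSeq start site (vertical line), in bases, for the 14 genes with a match, ordered by their log2 fold change in KO against wild type (in parentheses). Grey lines span the searched window, and the windows of a gene with several start sites are drawn on 1 line; matches of 12 genes lie before the start, and those of Eif2ak2 and Ifih1 only after it.

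Fold changes overlapped widely between genes with and without a match. The 14 genes with a match had a median log2 fold change of -0.46, with values from -1.34 to 0.05. The 13 genes with a window and no match had a median of -0.37, with values from -0.83 to 0.14, and the 11 genes without a window in the table had a median of -0.46. The difference between these medians was not tested.

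Across the whole set, levels were mostly lower in KO than in wild type LSK cells. The log2 fold change was below 0 for 34 of 38 genes (89.5%), against 50.4% of all tested genes, and its median was -0.42, or 0.749 times the wild type level, against -0.00 for all tested genes. The quartiles were -0.76 and -0.26 for the set and -0.20 and 0.18 for all tested genes. Because these levels come from bulk RNA, fewer cells expressing a gene and less RNA per cell cannot be told apart. An unadjusted p under 0.05 with a lower KO level was reached by 16 of the 38 genes (42.1%), against 3.28% of all tested genes, and with a higher KO level by 0, against 2.78%. The fitted KO level was at least 1.5-fold lower for 13 (34.2%), against 5.6%. The genes were listed with earlier results of these data known, so these shares describe the set and carry no test of their own.

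No single member passed the correction over all genes in the edgeR quasi-likelihood test with Benjamini-Hochberg adjustment, in which 8 of 13439 genes (0.0595%) had an adjusted p under 0.05. DESeq2, which called 0.491% of all genes, called 2 members, Rsad2 (adjusted p = 0.0049) and Ifit1 (adjusted p = 0.00867). Limma voom with sample weights called 0.231% of all genes and 1 member, Ifit1 (adjusted p = 0.0494).

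**Figure D2:**
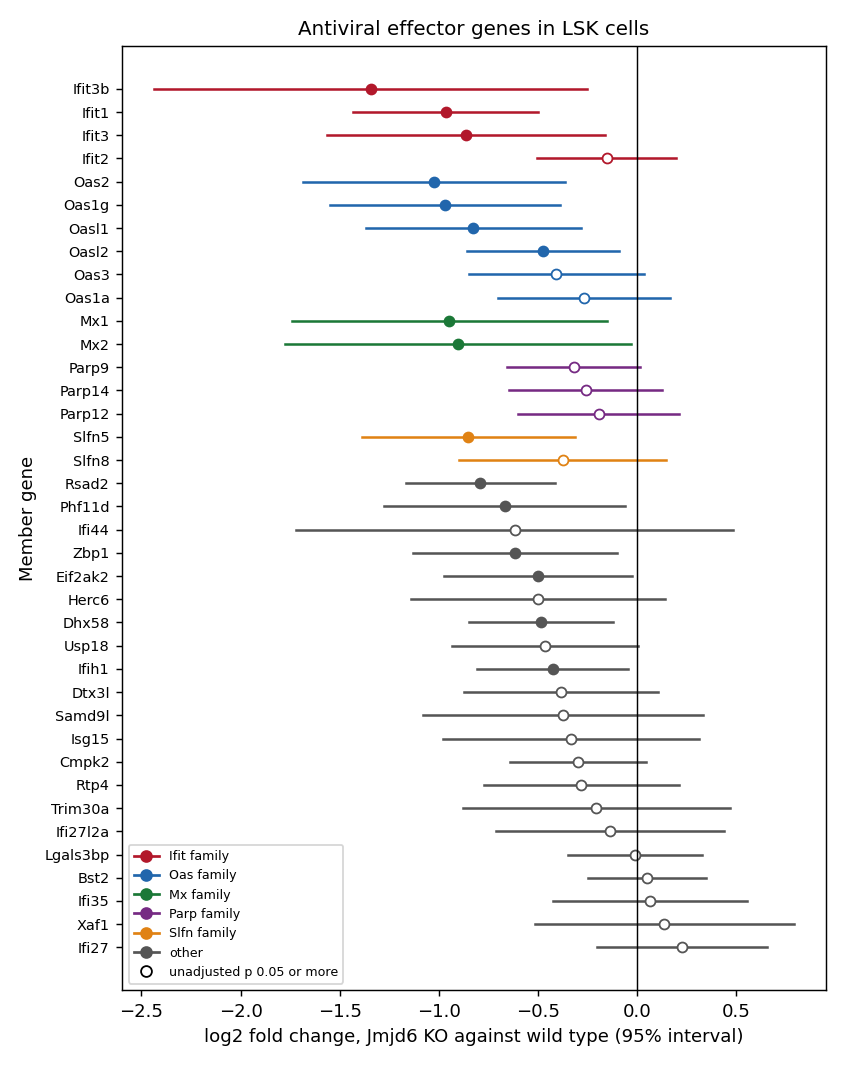
Log2 fold change in Jmjd6 KO against wild type for each of the 38 genes (points) with its 95% interval (lines), grouped and coloured by family; filled points have an unadjusted p under 0.05. The points of 34 genes lie left of 0, and the intervals of 16 do not reach 0.

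**Figure D3:**
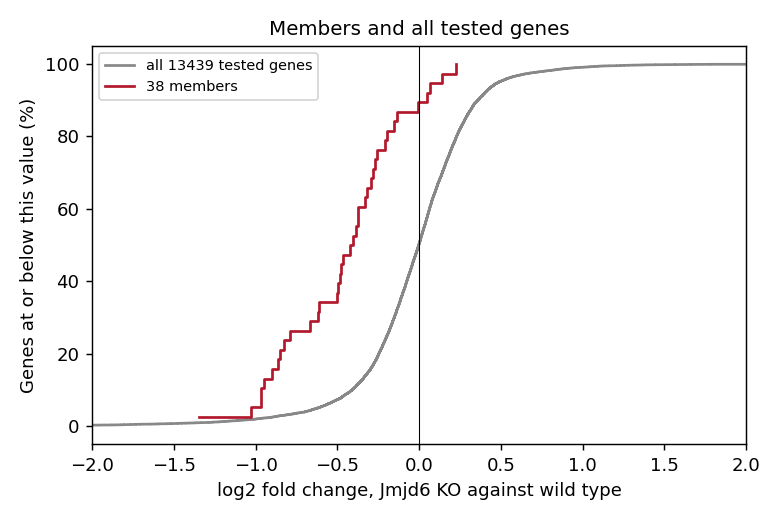
Share of genes (y axis, percent) at or below each log2 fold change (x axis) for the 38 members (red) and all 13439 tested genes (grey); the x axis is cut at -2 and 2. The red curve lies to the left of the grey one, with medians of -0.42 and -0.00.

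The Ifit proteins bind viral RNA and keep it from being translated. The 4 genes lie together on chromosome 19 and had a median log2 fold change of -0.91. Ifit1 (chr19:34640871-34650009), which recognises RNA whose cap lacks methylation, was at 33.6, 32.7, 55.6 and 48.3 CPM in the wild type and 18.0, 23.0, 24.3 and 21.8 CPM in the KO replicates, each time from replicate 1 to replicate 4. Every KO library was below every wild type library, and wild type replicates 3 and 4 were the high ones. The log2 fold change was -0.97 (SE 0.21, 95% interval -1.43 to -0.50, edgeR adjusted p = 0.286), which is a change of -48.8%.

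Ifit3 was at 4.75, 6.52, 8.84 and 7.69 CPM in the wild type and 2.90, 5.35, 2.90 and 4.18 CPM in the KO replicates. KO replicate 2 was above wild type replicate 1, so the groups overlapped, and the log2 fold change was -0.86 (SE 0.32). Its near copy Ifit3b was at 1.33, 2.79, 0.804 and 2.08 CPM in the wild type and 0.704, 0.514, 0.534 and 1.01 CPM in the KO replicates, with a log2 fold change of -1.34 (SE 0.50). The transcripts of these genes are 97.8% identical over 1700 aligned bases, and reads could have been split between them, so each alone is uncertain. Counted together they gave a log2 fold change of -0.95 (SE 0.29, edgeR adjusted p = 0.619), and their summed KO levels, 3.43 to 5.86 CPM, lay below the summed wild type levels, 6.07 to 9.77 CPM.

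Ifit2, which binds AU-rich RNA, stood out among the 4 by its small difference. It was at 39.8, 33.0, 43.3 and 45.8 CPM in the wild type and 35.1, 34.7, 38.1 and 37.7 CPM in the KO replicates, with overlapping groups, and its log2 fold change was -0.15 (SE 0.16, 95% interval -0.51 to 0.20). The interval of Ifit2 lies above the estimate of Ifit1, but the difference between the genes was not tested.

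The Oas enzymes make 2′-5′ linked oligoadenylates when they bind double-stranded RNA, and these activate the nuclease RNase L. The median log2 fold change of the 6 listed genes was -0.65, with every value below 0. Groups did not overlap for 3 of them, with the KO libraries lower, against 2.11% of all tested genes. Oas2 (chr5:120730333-120749853) had the largest difference of the 6, at 38.4, 37.0, 58.5 and 51.3 CPM in the wild type and 24.7, 36.1, 12.0 and 18.4 CPM in the KO replicates, a log2 fold change of -1.03 (SE 0.30, edgeR adjusted p = 0.558). KO replicate 2 came close to the lowest wild type library, and KO replicates 3 and 4 were far below all others. Oas3, its neighbour on the same strand, was at 103, 79.7, 102 and 91.5 CPM in the wild type and 69.2, 100.1, 50.6 and 63.8 CPM in the KO replicates. KO replicate 2 was again the high one and reached the wild type range, and the log2 fold change was -0.41 (SE 0.20, 95% interval -0.85 to 0.04).

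Oas1a and Oas1g are near copies, 97.5% identical over 1860 bases of transcript, and gave different values. Oas1g was at 8.50, 13.1, 11.2 and 17.0 CPM in the wild type and 5.54, 5.86, 6.33 and 7.75 CPM in the KO replicates, with no overlap and a log2 fold change of -0.97 (SE 0.27, edgeR adjusted p = 0.501). Oas1a was at 40.9, 58.9, 65.2 and 60.6 CPM in the wild type and 35.9, 45.2, 48.4 and 57.9 CPM in the KO replicates, with overlapping groups and a log2 fold change of -0.27 (SE 0.20). Summed, as a guard against reads split between the copies, they gave -0.37 (SE 0.20, edgeR adjusted p = 0.832). The promoter stretches printed above for both are the same over their shared length.

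Of the Oas-like proteins, Oasl1 lacks synthetase activity and is known to hold back translation of Irf7, while Oasl2 keeps the activity. Oasl1 was at 21.1, 34.8, 27.8 and 21.9 CPM in the wild type and 12.5, 18.3, 10.6 and 18.2 CPM in the KO replicates, without overlap, and its log2 fold change was -0.83 (SE 0.25, edgeR adjusted p = 0.583). Oasl2 was at 97.6, 122, 149.5 and 134 CPM in the wild type and 90.3, 96.6, 69.9 and 105 CPM in the KO replicates. Only wild type replicate 1 lay within the KO range, and the log2 fold change was -0.48 (SE 0.18).

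Mx proteins are dynamin-like GTPases that block viral ribonucleoproteins, and many laboratory strains carry defective alleles; the GENCODE vM21 annotation lists Mx2 as a polymorphic pseudogene. Both genes were low. Mx1 was at 10.3, 4.79, 8.74 and 8.32 CPM in the wild type and 4.14, 6.79, 3.28 and 2.48 CPM in the KO replicates, with wild type replicate 2 inside the KO range and a log2 fold change of -0.95 (SE 0.36). Mx2 was at 6.29, 5.72, 9.54 and 5.74 CPM in the wild type and 4.31, 5.55, 1.37 and 3.41 CPM in the KO replicates, and its log2 fold change was -0.90 (SE 0.40). The groups of Mx2 did not overlap, though KO replicate 2 and wild type replicate 2 were nearly level, and without KO replicate 3 its value was -0.62. The transcripts are 94.8% identical over 920 bases, and counted together they gave -0.93 (SE 0.32, edgeR adjusted p = 0.744).

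**Figure D4:**
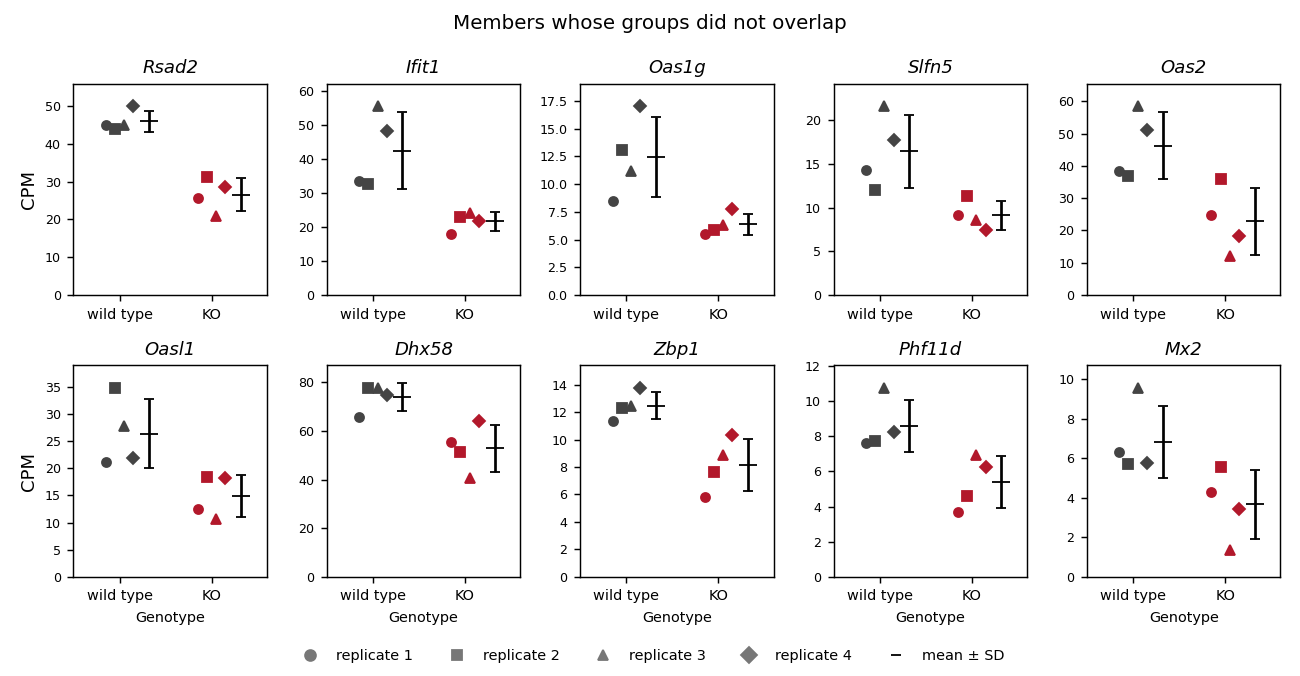
CPM (y axis, from 0) in each library for the 10 genes in which every KO library (red) lay below every wild type library (dark grey), ordered by p; marker shapes give the replicate number, and black bars the mean and SD of 4 libraries. The gap is wide for Rsad2, with 20.9 to 31.3 CPM in the KO against 43.9 to 49.9 CPM in wild type, and narrow for Mx2, with 5.55 against 5.72 CPM.

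Of all 38 genes, 10 (26.3%) had groups that did not overlap with the KO libraries lower, against 2.11% of all tested genes, and 0 had them the other way, against 2.08%. The widest gap relative to spread was that of Rsad2 (chr12:26442746-26456452, minus strand), which encodes viperin, a radical enzyme that makes a chain-terminating nucleotide. Rsad2 was at 44.8, 43.9, 44.99 and 49.9 CPM in the wild type and 25.7, 31.3, 20.9 and 28.4 CPM in the KO replicates. The wild type libraries were close together, and every KO library lay well below them. Its log2 fold change was -0.79 (SE 0.17, 95% interval -1.16 to -0.42, edgeR adjusted p = 0.276). Cmpk2, a nucleotide kinase whose start site lies 12752 bases away on the opposite strand, had a mean of 54.0 ± 5.13 CPM in the wild type and 43.9 ± 5.02 CPM in the KO (SD, n = 4), with overlapping groups and a log2 fold change of -0.30 (SE 0.16).

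Among the sensors of foreign nucleic acid, Dhx58 (LGP2, a helicase that tunes signalling by its relatives) was at 65.8, 77.6, 77.5 and 74.8 CPM in the wild type and 55.3, 51.5, 40.8 and 64.0 CPM in the KO replicates. The groups did not overlap, and the log2 fold change was -0.48 (SE 0.17, edgeR adjusted p = 0.746). Its relative Ifih1 (MDA5, a sensor of long double-stranded RNA) was at 75.9, 58.0, 75.3 and 82.3 CPM in the wild type and 44.8, 52.0, 66.6 and 53.5 CPM in the KO replicates, with KO replicate 3 above wild type replicate 2 and a log2 fold change of -0.43 (SE 0.17). Zbp1, a sensor of Z-form nucleic acid that can start necroptosis, was at 11.4, 12.3, 12.5 and 13.8 CPM in the wild type and 5.81, 7.61, 8.85 and 10.3 CPM in the KO replicates. Here the wild type libraries were close together and the KO libraries spread below them, with a log2 fold change of -0.61 (SE 0.24, edgeR adjusted p = 0.772). Eif2ak2 (PKR), the kinase that stops translation on binding double-stranded RNA, was at 98.4, 58.1, 90.0 and 93.1 CPM in the wild type and 77.5, 61.8, 58.6 and 42.1 CPM in the KO replicates. Wild type replicate 2 was as low as the KO libraries, and the log2 fold change was -0.50 (SE 0.22).

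The ISG15 system, which attaches a ubiquitin-like tag to proteins, gave no unadjusted p under 0.05 in its 3 listed genes. Isg15 itself had a mean of 7.23 ± 1.17 CPM in the wild type and 5.72 ± 1.91 CPM in the KO (SD, n = 4), with a log2 fold change of -0.33 (SE 0.30). Its transcript is 95.2% identical to that of AC151275.1 over 482 of its 756 bases, and whether reads were split between them was not tested. Usp18, which removes the tag and restrains the interferon receptor, had a log2 fold change of -0.46 (SE 0.21) from 48.5 ± 11.9 CPM (SD, n = 4) in wild type; its wild type replicate 1, at 30.8 CPM, lay at the level of the KO libraries. Herc6, the main ligase for the tag in mice, had a log2 fold change of -0.50 (SE 0.29) from 55.2 ± 9.46 CPM (SD, n = 4) in the wild type, and without KO replicate 3, its highest library, one of -0.89.

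The Parp members and their partner Dtx3l had small differences. The mono-ADP-ribosyltransferase Parp14 was at 54.9, 44.6, 62.5 and 42.7 CPM in the wild type and 48.3, 45.8, 38.9 and 37.96 CPM in the KO replicates. Parp12, which modifies proteins at the Golgi and in stress granules, was at 34.8, 49.8, 51.7 and 52.1 CPM in the wild type and 43.0, 47.3, 41.3 and 33.2 CPM in the KO replicates. In both genes the groups overlapped, with log2 fold changes of -0.26 (SE 0.18) and -0.19 (SE 0.19). Parp9 was at 122, 105, 122 and 97.7 CPM in the wild type and 96.1, 90.3, 71.7 and 100.2 CPM in the KO replicates, a log2 fold change of -0.32 (SE 0.15). Dtx3l, the ubiquitin ligase that works as a complex with Parp9, was at 166, 131, 190.4 and 135 CPM in the wild type and 141, 149, 70.4 and 116 CPM in the KO replicates, a log2 fold change of -0.38 (SE 0.23). In both, KO replicate 3 was the lowest library. The genes share 458 exonic bases on opposite strands, and since no source says whether counting used strand, reads from that stretch cannot be assigned to either.

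Schlafen genes encode regulators of growth and of RNA in immune cells. Slfn5 was at 14.4, 12.0, 21.6 and 17.7 CPM in the wild type and 9.15, 11.3, 8.54 and 7.44 CPM in the KO replicates, without overlap, a log2 fold change of -0.85 (SE 0.25, edgeR adjusted p = 0.553). An antisense gene, Slfn5os, shares 559 exonic bases with it. Slfn8 was at 105, 134, 188 and 83.9 CPM in the wild type and 105, 112, 70.8 and 106 CPM in the KO replicates, a log2 fold change of -0.38 (SE 0.24) that was -0.13 without wild type replicate 3. It is 92.6% identical to Slfn9 over 3496 bases, and the pair counted together gave -0.35 (SE 0.22).

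Phf11d, a zinc finger gene of an interferon-induced cluster on chromosome 14, was at 7.62, 7.71, 10.8 and 8.26 CPM in the wild type and 3.70, 4.63, 6.94 and 6.27 CPM in the KO replicates. Its groups did not overlap, and its log2 fold change was -0.67 (SE 0.28, edgeR adjusted p = 0.786). It shares 94.7% identity with Phf11c over 693 bases.

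Among the remaining genes the differences ranged from -0.62 to 0.23, and the groups of all 10 overlapped. Ifi44, an interferon-induced cytoplasmic protein gene, had 86.2 ± 51.4 CPM in the wild type and 56.2 ± 23.5 CPM in the KO (SD, n = 4), a log2 fold change of -0.62 with an interval from -1.72 to 0.48. Samd9l, a growth restraint in blood cells, had a log2 fold change of -0.37 (SE 0.32) from 135 ± 49.7 CPM (SD, n = 4), and Trim30a, a restraint on inflammatory signalling, one of -0.21 (SE 0.31) from 182 ± 83.2 CPM (SD, n = 4). Rtp4, a receptor transport protein gene, had a log2 fold change of -0.28 (SE 0.22) from 146 ± 35.8 CPM (SD, n = 4), and Ifi27l2a, a small interferon-induced membrane protein gene, one of -0.14 (SE 0.26) from 16.1 ± 1.83 CPM (SD, n = 4).

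The 3 members with the highest levels per length had log2 fold changes from -0.01 to 0.23. On the scale of CPM per kilobase of exon, Lgals3bp, a secreted glycoprotein, led the wild type libraries at 151 and was at 149.6 in KO, a log2 fold change of -0.01 (SE 0.16). Ifi27 followed at 101 and 118 (0.23, SE 0.20), and Bst2, the tether that holds budding virions on the cell surface, at 89.1 and 92.2 (0.05, SE 0.14). Bst2 thus differed little although its promoter holds 2 matches, and its interval runs from -0.25 to 0.35. Ifi35, whose product binds Nmi (0.07, SE 0.22, 80.8 ± 19.96 CPM in the wild type), and the pro-apoptotic gene Xaf1 (0.14, SE 0.30, 38.4 ± 13.4 CPM, both SD, n = 4) were the other genes above 0. Of these 4, Ifi27 alone stayed above 0 whichever library was left out. At the other end of the wild type order were Ifit3b, Mx2, Phf11d and Mx1, at 0.875 to 2.12 CPM per kilobase.

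Split at the set's median level of 47.0 CPM, the lower 19 genes had a median log2 fold change of -0.79, with 18 below 0 and 12 with an unadjusted p under 0.05. The upper 19 had a median of -0.37, with 16 below 0 and 4 with such a p. All tested genes below that level had a median of -0.05, with 55.5% below 0 and 4.52% with a lower KO level at such a p. Those at or above it had a median of 0.04, with 43.0% below 0 and 1.55% at such a p.

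**Figure D5:**
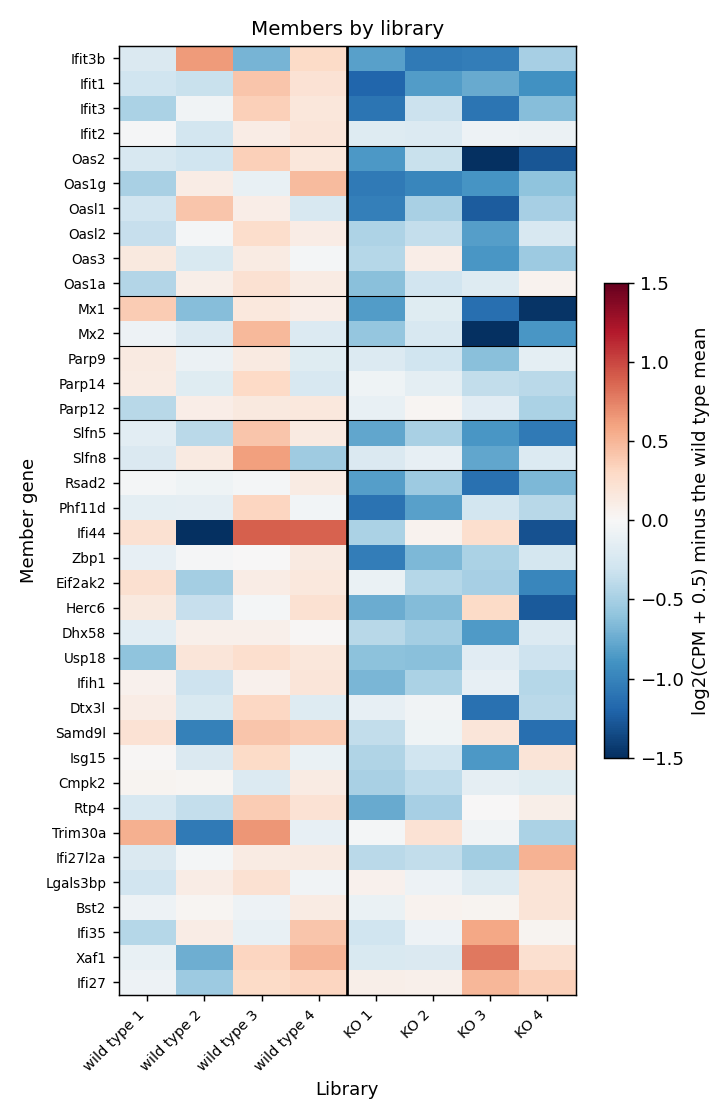
Log2(CPM + 0.5) minus the wild type mean, for the 38 genes (lines of cells, by family) in the 8 libraries (columns), with red above and blue below the wild type mean and colours capped at 1.5. The KO columns are mostly blue; wild type replicate 2 is blue for Ifi44, Samd9l and Trim30a, and KO replicate 3 is red for Ifi35, Xaf1 and Ifi27.

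By library, the median of the set relative to the wild type mean (log2) was -0.12, -0.16, 0.23 and 0.14 in the wild type and -0.47, -0.32, -0.50 and -0.42 in the KO replicates, so these medians did not overlap. The lowest of the 8 libraries was a KO library for 31 genes and the highest a wild type library for 32. For these and the following counts by library, the share of all tested genes was not computed. Wild type replicate 3 was the highest of 8 for 18 genes, and wild type replicate 2 was the lowest wild type library for 19. KO replicate 3 was uneven: it was the lowest of 8 for 13 genes, among them Oas2, Oas3, Mx2 and Rsad2, and the highest for 4, Xaf1, Ifi27, Ifi35 and Herc6. KO replicate 1 was the lowest for 9 other genes, among them Ifit1, Oas1g, Zbp1 and Ifih1.

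A group of 7 genes had its lowest wild type value in replicate 2 and its lowest KO value in replicate 4, chosen after their values were seen: Mx1, Ifi44, Trim30a, Herc6, Eif2ak2, Samd9l and Slfn5. The pattern was not particular to the set, since Irgm2, Iigp1, Ifi203 and Mndal, which are not members, had it too. Its share among all tested genes was not computed. Ifi44 was at 78.7, 16.4, 126 and 124 CPM in the wild type and 48.4, 69.5, 79.9 and 27.0 CPM in the KO replicates. Samd9l was at 145, 61.7, 168 and 164 CPM in the wild type and 97.1, 120.0, 142 and 57.1 CPM in the KO replicates. In both genes those 2 libraries were alike and far below the rest of their groups, so the spread within a genotype was wider than the difference between genotypes. The labels name nothing that the 2 libraries share. Without them the median of the set was -0.47.

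Upstream of these genes, the listed interferons themselves were near absent: 11 ligand genes had 32 counts in all 8 libraries together, and none was tested. Of 22 tested receptor, JAK-STAT and IRF genes, edgeR called 0, 2 had an unadjusted p under 0.05, both with lower KO levels (over all genes the share was 3.28%), and the median log2 fold change was -0.08. These were Irf7, the master factor of the second wave of interferon induction, at 66.7 CPM in the wild type and 35.0 CPM in the KO (a log2 fold change of -0.93 with SE 0.23, with edgeR adjusted p = 0.387 and DESeq2 adjusted p = 0.0272), and Stat2 (-0.53, SE 0.19). The third gene by p was the kinase Tyk2 (-0.60, SE 0.28, edgeR adjusted p = 0.812). Groups did not overlap for Irf7 and for Irf5 (-0.67, SE 0.33), the latter named after its values were seen. Both had lower KO levels (over all tested genes the share was 2.11%). KO replicate 3 lay far below every remaining library for Irf5 and Tyk2. In KO replicates 1 to 4, Irf5 held 36.1, 32.2, 9.15 and 31.8 CPM and Tyk2 65.3, 52.4, 21.2 and 54.45 CPM. Their wild type ranges were 39.0 to 49.5 and 65.1 to 88.5 CPM. How far KO replicate 3 set these fold changes was not tested. Of 18 tested genes of nucleic acid sensing, 0 had such a p, and the median was -0.01; the smallest p-values were those of the RNA sensor gene Ddx58 (-0.35, SE 0.18), the adaptor gene Myd88 (0.26, SE 0.15) and the kinase gene Ikbke (-0.28, SE 0.17).

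Further lists of interferon-stimulated genes are read against 50.4% of all tested genes below 0, 3.28% with a lower and 2.78% with a higher KO level at an unadjusted p under 0.05. Among 59 other interferon-stimulated genes tested, 42 were below 0, 6 had an unadjusted p under 0.05 with lower KO levels and 1 with a higher one, edgeR called 0, and the median was -0.09. The smallest p-values were those of the helicase gene Ddx60 (-0.64, SE 0.18), the ISG15-activating enzyme gene Uba7 (-0.67, SE 0.20) and the RNA helicase gene Mov10 (-0.64, SE 0.19). Ly6a, which encodes the Sca1 antigen used in the sort and is itself interferon-induced, was at 135.4 CPM in the wild type and 175.3 CPM in the KO, which is 0.37 on the log2 scale (SE 0.28, edgeR adjusted p = 0.837). Among 20 tested relatives of the Ifit, Oas, Parp, Slfn and Phf11 genes the median was -0.12, with 2 such p-values on the lower side (Parp3, -0.62, and Ifit1bl1, -1.18) and 1 on the higher (Tiparp, 0.45). Among 15 interferon-inducible GTPases the median was -0.20, and the 3 with such a p, Gbp4, Gbp6 and Gbp9, were high in wild type replicate 4 alone, at 66.6, 125.5 and 35.2 CPM against at most 6.03, 13.4 and 10.7 CPM in the remaining wild type ones. In these lists DESeq2 called Irf7 alone, and limma voom called 0.

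Markers of cells other than LSK cells were measured beside these results, and their part in them was not tested. Plasmacytoid dendritic cell markers, 8 genes of cells that make much interferon, summed to 75.3 to 99.7 CPM in the wild type and 64.9 to 105.8 CPM in the KO libraries, with the defining gene Siglech at 0 to 2.33 CPM. Of the 6 tested genes of that list 3 were below 0 and 3 above, and 2 had an unadjusted p under 0.05, Ccr9 and Pacsin1, both with lower KO levels. Pld4 (15.8 to 21.9 CPM in the wild type and 12.9 to 33.0 CPM in the KO libraries) and Smim5 (26.7 to 37.6 and 30.7 to 53.5 CPM) were highest in KO replicate 3. Ccr9 was at 18.2, 25.8, 19.5 and 4.22 CPM in the wild type and 7.20, 5.85, 1.83 and 5.26 CPM in the KO replicates. Monocyte and macrophage markers, 9 genes, summed to 115.9 to 370.8 CPM in the wild type and 139.7 to 253.5 CPM in the KO libraries, with 4 of the 9 below 0 and 5 above. Vsig4, a tissue macrophage gene, was at 0.199 to 1.20 CPM in the wild type and 3.17 to 11.4 CPM in the KO libraries, and it and Cd68 were the 2 with an unadjusted p under 0.05, both with higher KO levels. Csf1r was at 29.4 to 43.5 and 13.4 to 36.98 CPM. The 9 T and NK cell markers summed to 135.2 to 240.3 CPM in the wild type and 282.6 to 391.5 CPM in the KO libraries, most of it from Nkg7, while 6 of them, Cd3e, Cd3d, Cd3g, Trac, Cd8a and Ncr1, were under 1 CPM. Summed B and plasma cell markers were at 62.5 to 202.3 CPM in the wild type and 104.4 to 380.1 CPM in the KO libraries, neutrophil markers at 6.44 to 103 and 13.6 to 40.6 CPM, and megakaryocyte markers at 100.1 to 225.1 and 130.6 to 167.2 CPM. No marker of these lists was at 0 in every library.

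In the fits that left out 1 library each, 32 of the 38 genes stayed below 0 in all 8 fits. Of the 16 with an unadjusted p under 0.05, 7 kept it in all 8: Ifit1, Oas1g, Oas2, Oasl1, Rsad2, Slfn5 and Dhx58. For these counts and the next one, the share of all tested genes was not computed. Leaving out 1 library moved the log2 fold change of 14 genes below 0 by over 1.5 times, none of them among those 16. Toward 0, Dtx3l was -0.20 and Isg15 -0.17 without KO replicate 3, Oas1a -0.14 and Rtp4 -0.12 without KO replicate 1, Samd9l -0.17, Herc6 -0.31 and Parp12 -0.10 without KO replicate 4, Ifi44 -0.38 and Parp14 -0.15 without wild type replicate 3, and Ifit2 -0.087 without wild type replicate 4. Slfn8, Ifi27l2a, Trim30a and Lgals3bp are the other 4. In the 6 libraries with Y-linked counts, which leave out wild type replicate 4 and KO replicate 3, the median of the set was -0.39 and 11 genes (28.9%) had a p under 0.05 in either direction, against 5.71% of all genes. In the 6 libraries without wild type replicate 1 and KO replicate 3 the median was -0.44.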

How the data were processed

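Each of 8 mice, 4 per genotype, gave 1 polyA RNA library of sorted LSK cells, per the labels. The authors deposited unnormalized counts by gene symbol; HISAT2 and mm10 are named in the submitters' processing notes, while no source used here gives the counting tool, its strand setting or the annotation. All 8 columns were matched to samples by name. Genes were kept with edgeR filterByExpr (minimum count 10, minimum total 15), scaled by TMM and tested with the edgeR quasi-likelihood test (edgeR 4.0.16, R 4.3.3), KO against wild type without a replicate block, with Benjamini-Hochberg adjustment over all 13439 genes at 0.05. The SE is the log2 fold change divided by the square root of the F statistic, and intervals are at 95%. CPM are counts scaled to a common library size with TMM factors, and CPM per kilobase uses the union of GENCODE vM21 exons. Groups were called not overlapping on log2 CPM with a prior count of 2. Depth was 9344779 to 15079960 counts per library, and the common biological coefficient of variation was 27.8%. For members with few counts, such as Ifit3b with 5 to 13 counts in the KO libraries, counting noise was also large. Replicates of a group differed by more than sampling noise (chi-square per degree of freedom 6.65 to 93.4), so each counted as 1 sample.

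Alternatives were other size factors, other filters, DESeq2 1.42.0, limma voom (limma 3.58.1) with sample weights, a replicate block, each library left out, the 6 libraries with Y-linked counts, a length and level correction, and near copies summed. Similar transcripts were found with blastn 2.17.0. The code was tested on simulated data. The members, the gene lists and the rule for named genes were chosen with earlier results of these data known. That rule names Jmjd6, all Ifit, Oas, Mx, Parp and Slfn members with Dtx3l, every other member with an unadjusted p under 0.05 or groups that do not overlap, all with values in every library, the remaining members by their fold change and level, and from each list Ly6a and up to 3 genes with the smallest p; genes named beyond it for the groups they share or the markers they stand for were chosen after their values were seen.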

Additional observations from a re-analysis of the deposited data

Results flagged for a closer look

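In 6 of 78 groups of 4 libraries (38 genes and Jmjd6 in each genotype), 1 library lay farther from the others than Dixon's 95% value allows; chance gives about 1 in 20 such groups. In wild type replicate 1, Usp18 was low at 30.8 CPM while the rest of its group held 53.0 to 56.3 CPM, and Parp12 was low at 34.8 CPM against 49.8 to 52.1 CPM. In wild type replicate 2, Eif2ak2 was low at 58.1 CPM against 90.0 to 98.4 CPM, and Samd9l was low at 61.7 CPM against 145.4 to 168 CPM. Slfn8 was low in KO replicate 3, at 70.8 CPM where the rest of its group held 105.2 to 111.6 CPM. Ifi27l2a was high in KO replicate 4, at 23.3 CPM against 10.98 to 12.3 CPM.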

How the results depend on the processing

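The median log2 fold change of the 38 genes stayed between -0.47 and -0.37 under the alternatives it was computed for, which exclude the summed near copies, and the counts of genes with higher KO levels and no overlap stayed at 0. The median of all genes shifted by 0.05 with library size alone as the scaling. Members called over all genes numbered 2 with DESeq2 and 1 with limma voom. All genes called numbered 8, and 3 with the replicate block, 66 with DESeq2, 31 with limma voom, 2 to 8 without 1 library, 4 in the 6 libraries with Y-linked counts, 4 without wild type replicate 1 and KO replicate 3, and 0 without wild type replicate 2 and KO replicate 4. Over the fits without 1 library, members with an unadjusted p under 0.05 in either direction ran from 9 to 17. The 9 (23.7%, against 3.97% of all genes) came without wild type replicate 3. The 17 (44.7%) came without wild type replicate 2, against 5.45% of all genes, and without KO replicate 3, against 7.09%. Members without overlap and lower in KO numbered 17 without wild type replicate 1 and KO replicate 3 and 19 without wild type replicate 2 and KO replicate 4. Fewer libraries are compared there, so groups separate more easily, and the share of all genes was not computed. These 2 alternatives and the summed near copies were chosen after seeing the data. Jmjd6 had a log2 fold change of -1.02 with the replicate block (adjusted p = 0.402, edgeR), -1.06 to -0.99 without 1 library (adjusted p above 0.05 in 7 of those 8 fits), -1.02 in the 6 libraries with Y-linked counts, -1.11 without wild type replicate 1 and KO replicate 3 and -0.97 without wild type replicate 2 and KO replicate 4. Libraries gave no sign of pairing by replicate number (same-number correlations of -0.19 to 0.03, with 0 of 4 pairs correlated best with their own number). With only 4 pairs, this cannot exclude a pairing. With the replicate block 13 members (34.2%, against 3.98% of all genes) had an unadjusted p under 0.05 and the median was -0.43.

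The sign turned for 6 genes with values near 0. Without 1 library, Bst2 ran from -0.002 to 0.12, Xaf1 from -0.13 to 0.32, Ifi35 from -0.14 to 0.22, Trim30a from -0.46 to 0.017 and Lgals3bp from -0.082 to 0.071. Bst2 was -0.007 with library size alone and -0.16 with the length and level trend removed, where Ifi35 was -0.10. Limma voom gave -0.25 for Xaf1 and -0.093 for Ifi35. The 6 libraries with Y-linked counts gave 0.025 for Ifi27l2a and 0.027 for Lgals3bp. Without wild type replicate 1 and KO replicate 3, Xaf1 was -0.18 and Ifi35 -0.26, and without wild type replicate 2 and KO replicate 4 Xaf1 was -0.07. The cause of these changes was not tested. With the filter at 1 CPM in 4 libraries, 37 members were tested. Low counts limit Ifit3b, Mx1, Mx2, Ifit3 and Phf11d, with wild type means of at most 8.59 CPM.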
